A study of Ovis aries with 2 samples.

Results

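The genes described here are 8 glutamate receptor genes, chosen by symbol: GRIN1, GRIN2B and GRIN3A (NMDA), GRIA1 (AMPA), GRIK1 and GRIK2 (kainate), and GRM3 and GRM8 (metabotropic). They are 8 of 13765 listed features in 2 libraries of nuclear RNA from sheep cortex. Of 26 receptor genes searched, these included, 13 were listed, and the others were not analysed here. The sheep gene table of RefSeq held all 8 symbols. No coordinates are given, because the genome build of the files is not given in the sources used here.

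Glutamate receptors are the proteins through which neurons and glia of the cerebral cortex sense the main excitatory transmitter. Ionotropic receptors are ion channels built from subunits, in NMDA, AMPA and kainate families, whereas metabotropic receptors couple to G proteins. NMDA channels need the GRIN1 subunit, AMPA channels carry most fast excitation, and glia are known to express kainate and metabotropic receptors as well.

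Both libraries came from the cortex of adult wild-type Rambouillet ewes aged 18 to 36 months, in the same batch, with no treatment in life, and the series text speaks of 1 animal. The pre-processed library was made from nuclei isolated directly from dissected cortex, and the post-processed library from tissue that was first cleared of debris and red blood cells. By its title the other library is post-processed, but its treatment label reads as if no such removal was done. Every direction below rests on the titles. There was 1 library per condition, so no p-value is given, and each interval is an exact 95% interval that covers counting error only.

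The pre-processed library held 2125 barcodes and 9580441 unique molecular identifiers (UMIs, single counted RNA molecules), with a median of 2524 per barcode. The post-processed library held 905 barcodes, of which 494 had at least 100 detected genes and were kept as nuclei, with 765208 UMIs and a median of 667.5. No barcode was shared between the libraries. Levels are counts per 1000000 UMIs of the listed genes (CPM), summed over the nuclei of a cluster or class, and they are compared between nuclei for 1 gene at a time.

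Nuclei were clustered together with the receptor genes kept out of the variable genes, and clusters were named from markers of other genes. The pre-processed library held 617 excitatory-like, 216 inhibitory-like, 356 astrocyte-like, 181 oligodendrocyte-like, 108 oligodendrocyte precursor-like (OPC-like) and 85 microglia-like nuclei. The post-processed library held 406 microglia-like nuclei (82.2%), 57 oligodendrocyte-like, 29 vascular-like and 2 astrocyte-like nuclei, and no neuron-like or OPC-like nucleus. The label of mixed neural cells, neurons included, therefore matched the markers of the pre-processed library alone. Across the post-processed library the neuronal genes SYT1, CAMK2A, STMN2 and UNC13A summed to 56.2 CPM, against 9270 CPM before.

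A pair of pre-processed clusters stayed unnamed. One, led by S100B and NEFL, had 352 nuclei with a median of 1223 UMIs and raised markers of both astrocytes and neurons. The other, led by KCNH8 and COL9A1, had 202 nuclei and stood closest to excitatory neurons, but an OPC marker was among its leading genes. The differences between clusters below are descriptions with no test, since clusters are built from the same nuclei. The vascular-like cluster, with 8 pre-processed nuclei, is left out of the orders of clusters, and it held 4 GRM8 UMIs (252 CPM, 68.6 to 645).

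**Figure D1:**
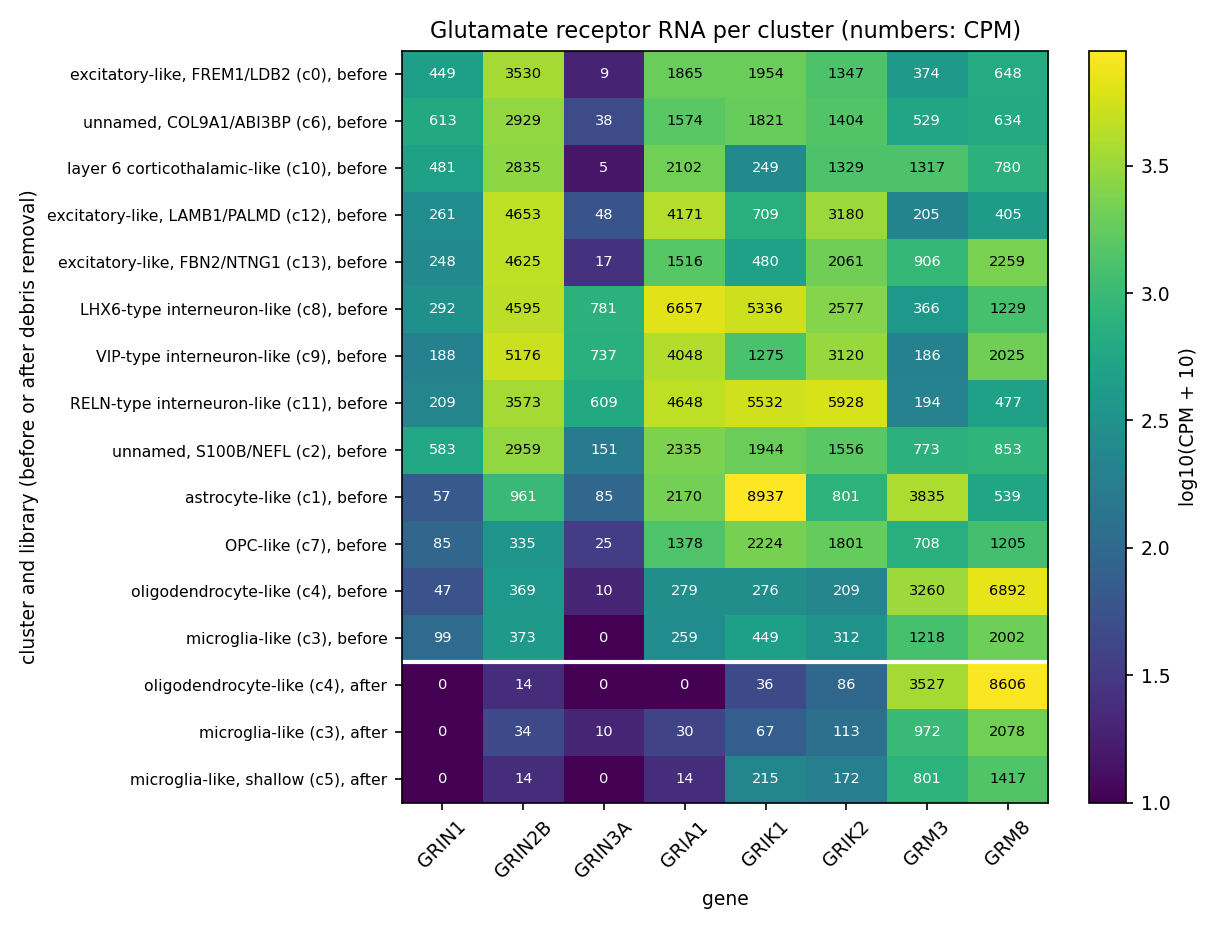
Level of each receptor gene in each cluster. Rows are clusters (13 before and 3 after debris removal, separated by the white line), columns are genes, colour is log10(CPM + 10) and the printed numbers are CPM. GRIN3A is high in the 3 interneuron-like rows, GRIK1 in the astrocyte-like row (8937 CPM) and GRM8 in both oligodendrocyte-like rows (6892 and 8606 CPM).

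GRIN1 encodes the subunit that every NMDA receptor contains. In the pre-processed library its level was highest in the unnamed COL9A1 cluster, at 613 CPM (563 to 667), and in the unnamed S100B cluster, at 583 CPM. The layer 6 corticothalamic-like cluster had 481 CPM and the FREM1/LDB2 excitatory-like cluster 449 CPM. The intervals of neighbours in this order met down to that point, and a gap followed. The LHX6-type interneuron-like cluster had 292 CPM, the LAMB1/PALMD and FBN2/NTNG1 excitatory-like clusters 261 and 248 CPM, and the RELN-type and VIP-type interneuron-like clusters 209 and 188 CPM. GRIN1 was thus graded among neurons by cluster, with 1.66-fold more in the summed excitatory-like than in the summed inhibitory-like nuclei. Glial clusters lay between 46.5 CPM in oligodendrocyte-like and 99.0 CPM in microglia-like nuclei.

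GRIN2B encodes a glutamate-binding NMDA subunit. It was highest in the VIP-type interneuron-like cluster, at 5176 CPM (4945 to 5414). The LAMB1/PALMD cluster at 4653 CPM, the FBN2/NTNG1 cluster at 4625 CPM and the LHX6-type cluster at 4595 CPM followed with intervals that met. Excitatory-like and inhibitory-like clusters were therefore interleaved, and the class sums differed by 1.21-fold (4542 CPM in inhibitory-like and 3749 CPM in excitatory-like nuclei). The lowest neuron-like cluster, layer 6 corticothalamic-like, had 2835 CPM. Astrocyte-like nuclei had 961 CPM, and the other 3 glial clusters between 335 and 373 CPM.

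GRIN3A encodes an NMDA subunit that binds glycine rather than glutamate. It separated the neuron classes most of the 8 genes. The LHX6-type cluster had 781 CPM (712 to 855), the VIP-type cluster 737 CPM (652 to 830) and the RELN-type cluster 609 CPM (520 to 709), and the intervals of neighbours in this order met. No excitatory-like cluster exceeded 47.9 CPM, the value of the LAMB1/PALMD cluster, where 1 nucleus held 25 of its 35 UMIs. The FREM1/LDB2 cluster had 9.48 CPM and the layer 6 corticothalamic-like cluster 4.99 CPM, from 2 UMIs. In sum, inhibitory-like nuclei had 730 CPM and excitatory-like nuclei 15.3 CPM, a 47.6-fold difference.

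Single nuclei of the LHX6-type cluster held between 0 and 57 GRIN3A UMIs, with a median of 2.5, and 68 of 92 held at least 1. Thinned to 200 UMIs each, 11 of these 92 nuclei and 23.9% of the VIP-type nuclei still held a GRIN3A UMI, from unthinned shares of 73.9% and 64.8%. The nuclei of the FREM1/LDB2 cluster had a similar median depth (6344 against 6101 UMIs). Their thinned share was 0 of 458, with an exact upper limit of 0.802%, and 4.59% held a UMI without thinning. GRIN3A was also among the 10 leading genes of the LHX6-type cluster, although it took no part in the clustering.

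GRIA1 encodes an AMPA receptor subunit. It was highest in the LHX6-type cluster, at 6657 CPM (6453 to 6867). The RELN-type cluster had 4648 CPM, the LAMB1/PALMD excitatory-like cluster 4171 CPM and the VIP-type cluster 4048 CPM. The last pair had intervals that met, so 1 excitatory-like cluster reached the interneuron range, while the other 3 lay between 1516 and 2102 CPM. Astrocyte-like nuclei, at 2170 CPM, lay just above these 3 excitatory-like clusters and OPC-like nuclei, at 1378 CPM, just below them, each with an interval that met that of its neighbour. Oligodendrocyte-like and microglia-like nuclei had 279 and 259 CPM. In LHX6-type nuclei the GRIA1 UMIs ranged from 0 to 267 per nucleus, with a median of 28.5.

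GRIK1 encodes a kainate receptor subunit, and its highest level was in glia. Astrocyte-like nuclei had 8937 CPM (8758 to 9119) and held 36.7% of the library's GRIK1 UMIs with 11.03% of its UMIs. Of 356 such nuclei 355 held a GRIK1 UMI, with a median of 22 and a range of 0 to 128. Thinned to 200 UMIs, 76.1% of astrocyte-like nuclei held one, against 6.08% of oligodendrocyte-like nuclei, whose unthinned share was 30.9% and whose median depth was 1490 against 2637 UMIs.

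Among neurons GRIK1 was divided by subtype. The RELN-type cluster had 5532 CPM and the LHX6-type cluster 5336 CPM, with intervals that met, while the VIP-type cluster had 1275 CPM. The FREM1/LDB2 cluster had 1954 CPM, and the other excitatory-like clusters had 709, 480 and, in the layer 6 corticothalamic-like cluster, 249 CPM. That last value was below the 276 CPM of oligodendrocyte-like nuclei, though their intervals met. OPC-like nuclei had 2224 CPM. Within the LHX6-type cluster the count per nucleus was wide, from 0 to 261 with quartiles of 2, 13 and 45.25.

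GRIK2 encodes another kainate receptor subunit and did not share the astrocyte peak of GRIK1. It was highest in the RELN-type cluster, at 5928 CPM (5642 to 6224). The LAMB1/PALMD and VIP-type clusters had 3180 and 3120 CPM, with intervals that met, and the LHX6-type cluster had 2577 CPM. The remaining neuron-like clusters lay between 1329 and 2061 CPM. Of the glia, OPC-like nuclei had 1801 CPM, above the 801 CPM of astrocyte-like nuclei and the 312 and 209 CPM of microglia-like and oligodendrocyte-like nuclei. Thinned to 200 UMIs, 31.5% of OPC-like and 2.21% of oligodendrocyte-like nuclei held a GRIK2 UMI, from unthinned shares of 87.0% and 26.5% at median depths of 1992 and 1490 UMIs.

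GRM3 encodes a metabotropic receptor that lowers cyclic AMP. It was led by glia, with 3835 CPM (3718 to 3955) in astrocyte-like and 3260 CPM (3059 to 3470) in oligodendrocyte-like nuclei. Astrocyte-like nuclei held 44.5% of the library's GRM3 UMIs, and 345 of 356 held at least 1, with a median of 8. Among neurons the layer 6 corticothalamic-like cluster stood highest, at 1317 CPM, followed by the FBN2/NTNG1 cluster at 906 CPM. The other excitatory-like and the inhibitory-like clusters had between 186 and 374 CPM. GRM3 thus marked off 2 excitatory-like clusters of 4, and microglia-like nuclei had 1218 CPM.

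GRM8 encodes a metabotropic receptor of the group that is mostly presynaptic in neurons. Its level in pre-processed oligodendrocyte-like nuclei was 6892 CPM (6598 to 7195), 3 times or more that of any other cluster. Of 181 such nuclei 179 held a GRM8 UMI, with a range of 0 to 41, quartiles of 6, 9 and 16, and a share of 72.9% after thinning to 200 UMIs. The thinned share was 8.15% in astrocyte-like nuclei, from 33.1% unthinned.

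The next highest GRM8 levels were in the FBN2/NTNG1 excitatory-like cluster (2259 CPM), the VIP-type cluster (2025 CPM) and the microglia-like cluster (2002 CPM), whose intervals met in that order. Every one of the 44 FBN2/NTNG1 nuclei held a GRM8 UMI, from 4 to 146 with a median of 20.5. The LHX6-type and OPC-like clusters had 1229 and 1205 CPM. The other clusters lay between 405 CPM in the LAMB1/PALMD cluster and 853 CPM in the unnamed S100B cluster. Because the FREM1/LDB2 cluster was deep and large, its 648 CPM still made up 22.7% of the GRM8 UMIs of the library, beside 20.9% from oligodendrocyte-like nuclei.

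In class sums of the pre-processed library, 4 of 8 members were at least 2-fold higher in inhibitory-like than in excitatory-like nuclei, where 9.72% of 7415 genes were. None of the 8 was at least 2-fold lower, against 11.2% of genes. The 4 were GRIN3A, GRIK1 (4180 against 1491 CPM, log2 1.49, 1.44 to 1.54), GRIA1 (5445 against 2174 CPM, log2 1.32, 1.28 to 1.37) and GRIK2 (3473 against 1680 CPM, log2 1.05, 0.99 to 1.10). GRIK2, at 2.07-fold, lay just past the limit. GRM8 was 1.64-fold higher, and GRIN1 and GRM3 were lower by less than the limit, at log2 -0.73 and -0.80. The median log2 ratio was 0.88 over the members and 0.05 over all genes.

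Pooled glia (astrocyte-, oligodendrocyte-, OPC- and microglia-like nuclei) were set against neuron-like nuclei in the same way. GRM3, GRIK1 and GRM8 were at least 2-fold higher in glia, which makes 3 of 8 beside 28.4% of 7889 genes. GRM3 had 3043 against 439 CPM (log2 2.79), GRIK1 5763 against 2013 CPM (log2 1.52) and GRM8 1833 against 890 CPM (log2 1.04, 0.98 to 1.10). The count for glia was 2 when classes were taken from marker UMIs in each nucleus. GRIN1, GRIN2B, GRIN3A and GRIK2 were at least 2-fold lower in glia, with log2 ratios from -2.57 to -1.30, beside 16.9% of genes, and GRIA1 lay between at log2 -0.83. The median log2 ratio was -1.06 over the members and 0.39 over all genes.

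Neuronal RNA was counted in glial nuclei too. SYT1, CAMK2A, STMN2 and UNC13A, none of them a glial marker, together had 1283 CPM in astrocyte-like, 1402 CPM in oligodendrocyte-like, 1769 CPM in OPC-like and 2261 CPM in microglia-like nuclei, against 10928 CPM in neuron-like nuclei. Receptor UMIs were therefore also counted per 100 UMIs of those 4 genes.

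GRIN1 gave 3.41 (3.27 to 3.55) per 100 neuronal reference UMIs in neuron-like nuclei, 4.42 (3.36 to 5.73) in astrocyte-like, 3.32 (1.80 to 5.63) in oligodendrocyte-like, 4.78 (3.03 to 7.20) in OPC-like and 4.38 (2.30 to 7.60) in microglia-like nuclei. The interval of each glial class thus met that of neurons. In oligodendrocyte-like nuclei GRIN2B (26.3), GRIA1 (19.9), GRIK1 (19.7) and GRIK2 (14.9) lay between the values of excitatory-like and inhibitory-like nuclei or, for GRIN2B, below both (32.3 and 56.1). In microglia-like nuclei GRIN2B (16.5) and GRIA1 (11.4) lay below both neuron classes, GRIK2 (13.8) close to excitatory-like nuclei and GRIK1 (19.9) between the classes. None of these genes thus stood above the neuronal ratio in oligodendrocyte-like or microglia-like nuclei.

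Other values stood far above the neuronal ratio. GRIK1 gave 696 per 100 in astrocyte-like and 126 in OPC-like nuclei, against 12.8 in excitatory-like and 51.6 in inhibitory-like nuclei. GRIA1 gave 169 in astrocyte-like and 77.9 in OPC-like nuclei, against 18.7 and 67.2. GRIK2 gave 102 in OPC-like and 62.4 in astrocyte-like nuclei, against 14.5 and 42.9. These values lay above both neuron classes with intervals apart, except GRIA1 in OPC-like nuclei, whose interval (68.1 to 89.1) met that of inhibitory-like nuclei (65.2 to 69.4). GRIN2B, at 74.9 in astrocyte-like nuclei, lay above both classes as well, and GRIN3A, at 6.64 there, lay between 0.132 in excitatory-like and 9.02 in inhibitory-like nuclei. GRM3 gave 299 in astrocyte-like and 232 in oligodendrocyte-like nuclei, against 4.02 in neuron-like nuclei. GRM8 gave 491 (442 to 547) in oligodendrocyte-like and 88.6 in microglia-like nuclei, against 8.14.

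**Figure D2:**
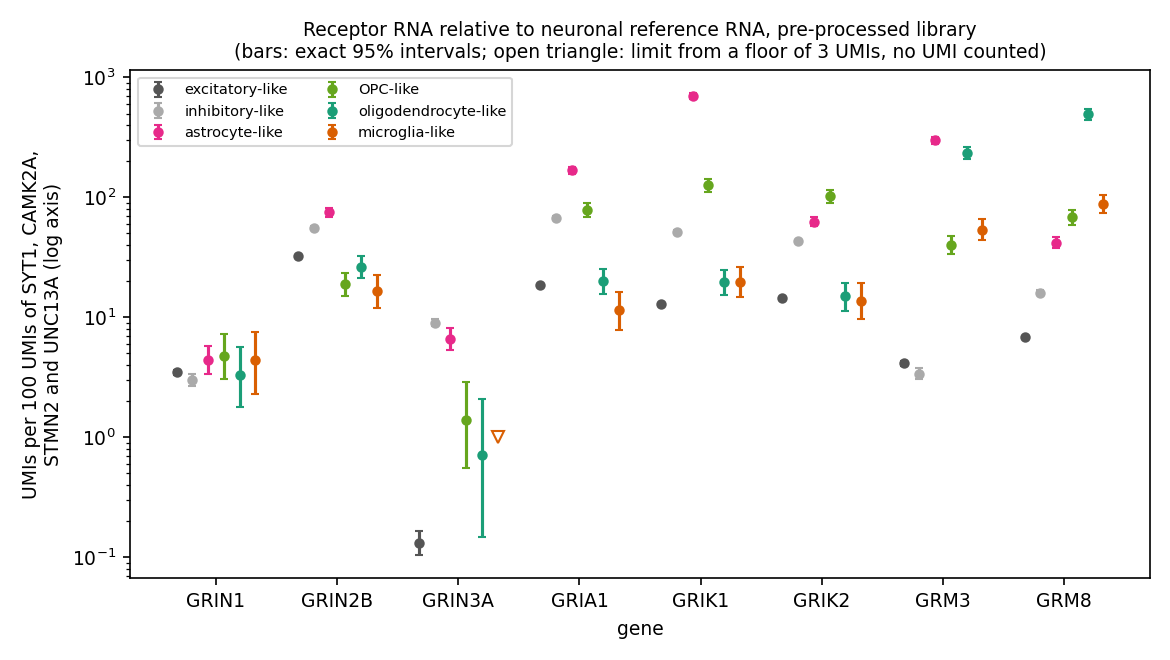
UMIs of each receptor gene per 100 UMIs of SYT1, CAMK2A, STMN2 and UNC13A in 6 classes of the pre-processed library, on a log axis. Points are class sums and bars exact 95% intervals, and the open triangle marks a floor of 3 UMIs for a gene with no UMI. The classes lie close together for GRIN1, while GRM8 reaches 491 in oligodendrocyte-like and GRIK1 696 in astrocyte-like nuclei.

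After processing, 6 of 8 members were at least 2-fold lower over all nuclei, where 20.6% of 8344 genes were, and 1 was at least 2-fold higher, where 31.2% were. The median log2 ratio was -4.45 over the members, also with GRIN1 at its bound, and 0.37 over all genes. A gene with no UMI is bounded by a floor of 3 UMIs over the nuclei compared. Fewer nuclei of a class and less RNA per nucleus cannot be told apart in these sums, and the post-processed library held no nucleus named as a neuron.

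All 3 NMDA subunits were lower. GRIN1 had 348 CPM before, from 3338 UMIs, and no UMI after. It was 88.9-fold lower at the floor of 3 UMIs, with an exact upper log2 limit of -6.17. GRIN2B had 3167 CPM before and 28.8 CPM after, from 22 UMIs (log2 -6.75, -7.46 to -6.18). GRIN3A had 125 CPM before and 6.53 CPM after, from 5 UMIs, all in the microglia-like cluster shared by both libraries (log2 -4.12, -5.88 to -3.03).

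GRIA1 had 2437 CPM before and 24.8 CPM after, from 19 UMIs (log2 -6.58, -7.35 to -5.97). GRIK1 went from 2683 to 96.7 CPM (log2 -4.78, -5.14 to -4.47). GRIK2 went from 1720 to 108 CPM (log2 -3.98, -4.32 to -3.68). Of the 74 GRIK1 UMIs that were counted after processing, 18 lay in 1 of the 2 astrocyte-like nuclei. The differences of the ionotropic members still counted ran from 15.9-fold for GRIK2 to 110-fold for GRIN2B, and the intervals of GRIK2 and GRIN3A met.

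The metabotropic members went the other way. GRM3 was higher by less than 2-fold, with 1469 CPM after processing against 950 CPM (log2 0.63, 0.54 to 0.72). GRM8 had 9941 UMIs or 1038 CPM in the pre-processed library and 2326 UMIs or 3040 CPM in the post-processed one (log2 1.55, 1.48 to 1.62). Scaling to the median gene ratio moved all log2 ratios by -0.45, which left GRM3 at 0.18 and GRM8 at 1.10.

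**Figure D3:**
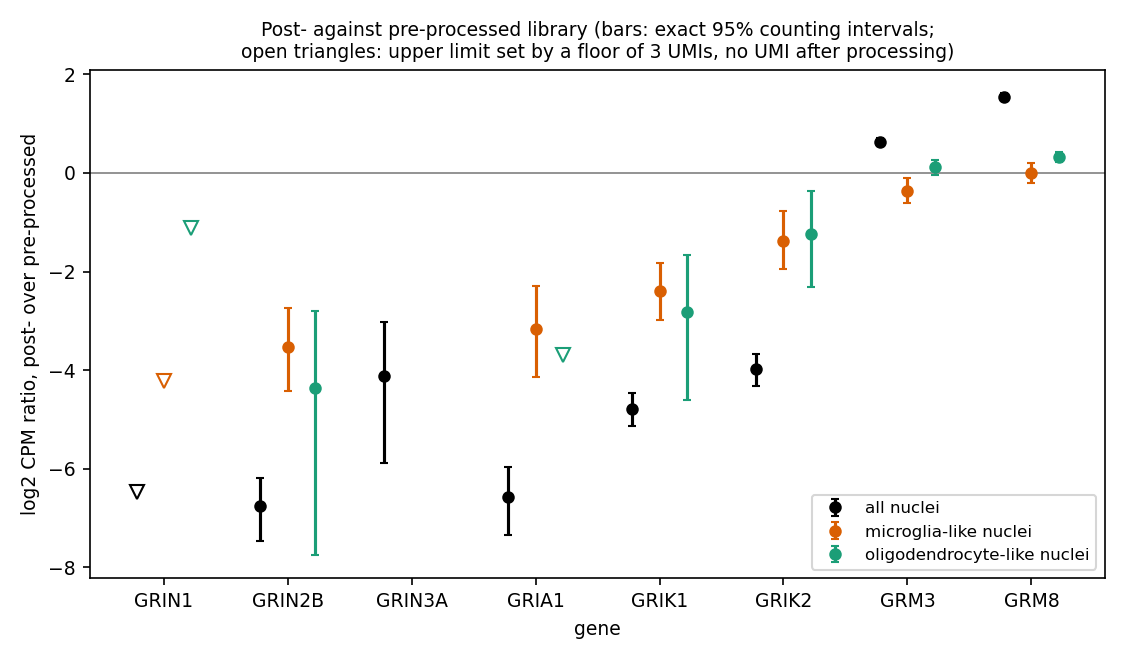
Log2 ratio of CPM after over before processing for each receptor gene, over all nuclei (black), microglia-like nuclei (orange) and oligodendrocyte-like nuclei (green). Bars are exact 95% counting intervals, and open triangles are set at a floor of 3 UMIs for genes with no UMI after processing. Over all nuclei the 6 ionotropic genes lie below 0, as do the 5 of them tested within the classes, where GRIN3A was not tested, while GRM8 is at 1.55 over all nuclei and -0.01 and 0.32 within the 2 classes.

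Within classes that both libraries held, 5 of the 6 ionotropic members were lower as well. GRIN3A had too few counts to be tested there, with 0 UMIs before and 5 after in microglia-like nuclei and 3 before and 0 after in oligodendrocyte-like nuclei. Microglia-like nuclei were 85 nuclei of 1 cluster before, and 179 nuclei of that cluster and 227 nuclei of a shallow cluster (median 231 UMIs) after. There 5 of 7 members tested were at least 2-fold lower, where 14% of 5280 genes were, and none was at least 2-fold higher, where 13.1% were. GRIN2B had 373 CPM before and 31.9 CPM after, GRIA1 259 and 28.4 CPM, GRIK1 449 and 85.1 CPM, and GRIK2 312 and 121 CPM. Of the 15 GRIA1 UMIs in the shared cluster after processing, 9 lay in 1 nucleus. GRIN1 had 13 UMIs before and none after. GRM3 had 1218 CPM before and 951 CPM after (log2 -0.36, -0.61 to -0.09), and GRM8 2002 and 1996 CPM (log2 -0.01, -0.20 to 0.19). The median log2 ratio was -2.40 over the members tested and -0.08 over all genes. In the shared cluster alone 5 of 7 were again lower, where 15.6% of genes were, none was higher, where 12.2% were, and GRM8 had a log2 ratio of 0.05.

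In oligodendrocyte-like nuclei, 181 before and 57 after, 5 of 7 members tested were again at least 2-fold lower, where 19.2% of 4129 genes were, and none was higher past the limit, where 7.07% were. GRIA1 had 84 UMIs before and none after, 12.95-fold lower at the floor of 3 UMIs (exact upper log2 limit -3.37). GRIN1 had 14 and none, 2.16-fold lower at that floor, but its exact upper log2 limit of -0.62 did not reach 2-fold. GRIN2B had 369 CPM before and 14.4 CPM after, from 2 UMIs, GRIK1 276 and 35.9 CPM, and GRIK2 209 and 86.2 CPM. Of the 12 GRIK2 UMIs after processing, 10 lay in 1 nucleus. GRM3 had 3260 and 3527 CPM (log2 0.11, -0.05 to 0.27) and GRM8 6892 and 8606 CPM (log2 0.32, 0.22 to 0.42). The median log2 ratio over the members tested was -2.81, or -1.23 when GRIN1 and GRIA1 are set at the floor, and -0.10 over all genes. Per neuronal reference UMI, the 5 genes that were lower in both glial classes did not stand above both neuron classes with intervals apart before processing. GRIK1 stood above excitatory-like nuclei alone. Over all nuclei the neuronal reference genes were lower after processing too, at 43 UMIs. Beside these stood 83 UMIs of GRIK2, 74 of GRIK1, 22 of GRIN2B, 19 of GRIA1 and none of GRIN1. The part of neuronal RNA in these differences was not tested.

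To set the shares of classes beside the levels within them, the pre-processed level of each class was weighted by the UMI share of that class after processing. This gave 2754 CPM for GRM8, beside 3040 CPM measured, and 1696 CPM for GRM3, beside 1469 CPM measured. The measured GRM8 was thus 0.14 higher and the measured GRM3 0.21 lower on the log2 scale than the weighted level. The weighted levels hold for the classes used here alone, and the GRM8 ratio within microglia-like nuclei differed with other classes, as given below. Of the ionotropic members 5 were measured below the weighted level. It was 399 CPM for GRIN2B, 285 for GRIA1, 543 for GRIK1 and 310 for GRIK2, and 28.8, 24.8, 96.7 and 108 CPM were measured. It was 86.4 CPM for GRIN1, which had no UMI. GRIN3A went the other way, with 3.20 CPM weighted and 6.53 CPM measured from 5 UMIs.

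The GRM8 UMIs of the post-processed library lay in 2 classes. Oligodendrocyte-like nuclei, 11.5% of nuclei and 18.2% of UMIs, held 1198 of the 2326 UMIs, or 51.5%. Microglia-like nuclei held 48.4% (46.3 to 50.4), of which 1026 UMIs lay in the cluster that both libraries share and 99 in the shallow cluster. All 57 oligodendrocyte-like nuclei held GRM8, from 1 to 59 UMIs with quartiles of 9, 16 and 30. In the shared microglia-like cluster the median nucleus held none, 49 of 179 held at least 1, and 1 nucleus held 119. GRM8 was therefore spread over the oligodendrocyte-like nuclei and gathered in a minority of the microglia-like ones.

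That minority was set apart by oligodendrocyte markers. Each nucleus was scored by how many of UGT8, ERMN, CLDN11, TF, ST18, SLC24A2 and DOCK5 it held. In the shared microglia-like cluster after processing, 132 nuclei with under 3 of these 7 markers held 11 GRM8 UMIs (55.9 CPM, 27.9 to 99.9). The 47 nuclei with 3 or more held 1015 of the 1026 UMIs, or 98.9%, at 3419 CPM (3211 to 3636). The 71 nuclei with none of the 7 markers held 2 GRM8 UMIs.

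All 7 markers were counted in the 47 nuclei, in 27 of them for DOCK5 up to 43 for TF and SLC24A2. Microglial markers were present in them too, at 11593 CPM over 13 listed genes, against 19086 CPM in the other 132. The 47 nuclei were deeper, with a median of 5027 against 1308 UMIs. Among nuclei of 1000 to 5000 UMIs, 22 with 3 or more markers held 237 of 246 GRM8 UMIs at 3441 CPM, and 78 with fewer held 9 at 59.6 CPM. The difference was thus as large within that range of depth, although the 22 were still deeper there, with a median of 3528 against 1675 UMIs. Whether each of these nuclei was a single nucleus was not tested, and the doublet caller made practically no calls (4 of 2125 and 0 of 494).

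The same split was seen before processing. Of 263 GRM8 UMIs in the 85 microglia-like nuclei, 240 (91.3%) lay in 26 nuclei with 3 or more oligodendrocyte markers, at 4100 CPM. The other 59 nuclei had 316 CPM (200 to 474), above the 55.9 CPM of the 132 such nuclei of the shared cluster after processing. With the shallow cluster included, 328 microglia-like nuclei with under 3 markers had 295 CPM (232 to 370) after processing, an interval that met the one before. The shallow cluster supplied 64 of these 75 GRM8 UMIs, from nuclei with a median of 213 UMIs. Among microglia-like nuclei of 1000 to 5000 UMIs, 51 with under 3 markers had 322 CPM (200 to 493) before processing. After processing 82 such nuclei had 57.6 CPM (26.3 to 109), so the intervals lay apart in that range of depth. Over all depths after processing, microglia-like nuclei with 3 or more markers held 1050 of 1125 GRM8 UMIs, or 93.3%. GRM3 was divided in the same way after processing, with 474 of 480 UMIs in the 47 nuclei, at 1596 CPM against 30.5 CPM. Over all 494 kept nuclei, the 137 with 3 or more of the markers held 2250 of the 2326 GRM8 UMIs, or 96.7%. These include the 57 oligodendrocyte-like nuclei with 1198 of the UMIs, whose cluster was named by the same markers. Over all kept nuclei before processing, 517 nuclei had 3 or more markers and held 4599 of 9941 GRM8 UMIs, or 46.3%. Of these nuclei 179 were oligodendrocyte-like, with 2041 of the UMIs, and 26 were microglia-like, with 240. The rest lay in other clusters, so 46.3% is not the share of the oligodendrocyte-like cluster, which was 20.9%. The markers were counted in neurons too. Before processing, 617 excitatory-like nuclei held 9725 marker UMIs and 181 oligodendrocyte-like nuclei 6366.

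**Figure D4:**
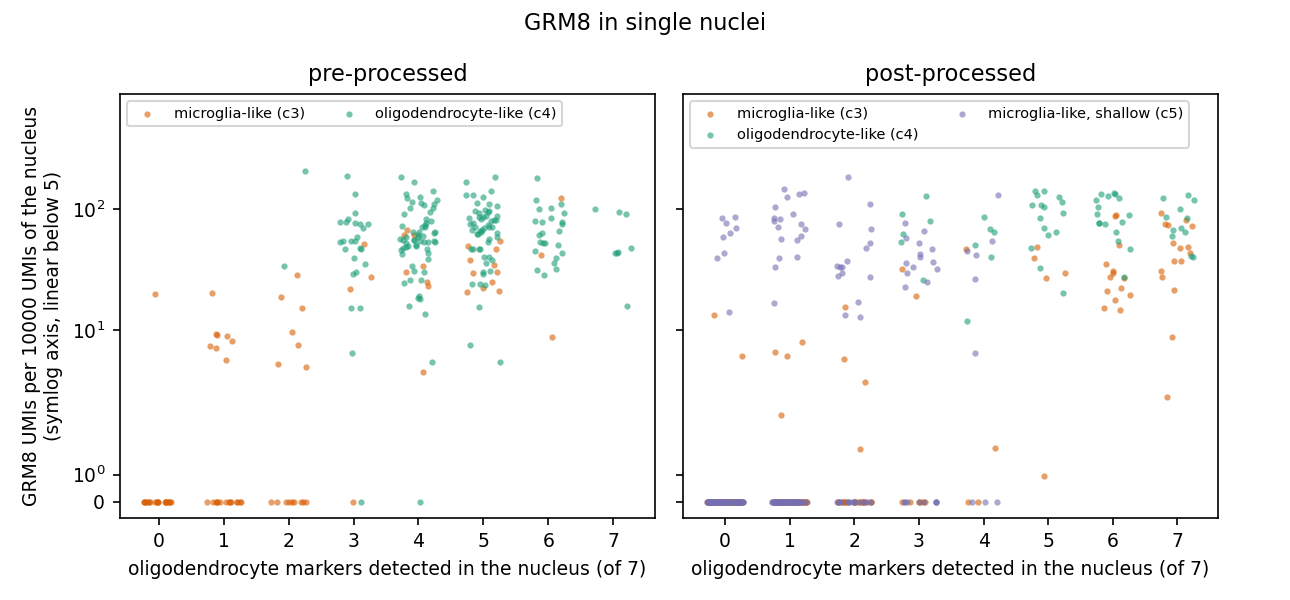
GRM8 in single nuclei of the oligodendrocyte-like and microglia-like clusters, before (left) and after (right) processing. The x axis counts oligodendrocyte markers detected out of 7, with points spread sideways to be visible, and the y axis gives GRM8 UMIs per 10000 UMIs on a scale that is linear below 5 and logarithmic above. Shared microglia-like nuclei after processing held 11 GRM8 UMIs with under 3 markers and 1015 with 3 or more, while shallow microglia-like nuclei, with a median of 231 UMIs, are high wherever they hold 1 UMI.

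GRM8 was also counted relative to these markers. Per 100 UMIs of the 7 markers there were 32.6 (31.0 to 34.2) GRM8 UMIs in oligodendrocyte-like and 30.9 (26.8 to 35.5) in microglia-like nuclei before processing. Astrocyte-like nuclei gave 23.7 (21.6 to 25.9) and OPC-like nuclei 26.6 (23.5 to 29.9). After processing there were 35.6 (33.3 to 38.1) in oligodendrocyte-like nuclei, 30.5 (28.5 to 32.8) in the shared and 25.4 (20.2 to 31.8) in the shallow microglia-like cluster, so the first of these stood apart from the other two. Excitatory-like and inhibitory-like nuclei, by comparison, gave 41.9 and 51.2. For GRM3 the ratio was 15.4 and 14.6 in oligodendrocyte-like nuclei before and after, 14.3 in the shared and 14.4 in the shallow microglia-like cluster after, and 168 in astrocyte-like nuclei. SLC24A2 supplied the most UMIs of the 7 markers in the 47 nuclei, 1954 of 3214.

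In the shallow cluster the split was less sharp. Nuclei with no oligodendrocyte marker held 11 GRM8 UMIs in 90 nuclei (401 CPM), the 196 with under 3 held 64 of the 99 (64.6%, 1118 CPM), and the 31 with 3 or more held 35 (2767 CPM). Oligodendrocyte-like nuclei could be read the other way round, by microglial markers. The 24 with none of these after processing had 9411 CPM of GRM8 (8578 to 10303), and the 33 with at least 1 had 8157 CPM (7576 to 8771), so GRM8 was no lower in the nuclei without microglial markers.

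The share of GRM8 given to microglia-like nuclei depended on how nuclei were classed. It was 48.4% with the clusters used here and 11.3% with finer clusters, 35.0% with classes taken from marker UMIs, and 5.66% without nuclei holding at least 2 markers of each of the classes microglia and oligodendrocyte. The log2 ratio of GRM8 in microglia-like nuclei, -0.01 here, was then 1.24, 0.53 and 0.51. It also depended on depth. Among nuclei of 1000 to 5000 UMIs, 76 microglia-like nuclei had 2078 CPM (1831 to 2350) before and 105 had 1089 CPM (958 to 1234) after, a log2 ratio of -0.93 (-1.19 to -0.67).

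Other genes of the glutamate synapse were taken from a list of 74, of which 28 were listed and 25 could be tested. After processing 18 were at least 2-fold lower, 3 higher and 4 neither, beside 20.6% lower and 31.2% higher of all genes. The median log2 ratio was -3.24 over the list and 0.37 over all genes. Of the other receptors, GRIK3, a kainate receptor subunit, had the highest ratio (330 to 379 CPM, log2 0.20, 0.02 to 0.37). GRIK3 had 1013 CPM before and 1034 CPM after in oligodendrocyte-like nuclei, so it differed from GRIK1 and GRIK2 in that class. Its highest level was in the layer 6 corticothalamic-like cluster, at 1486 CPM, where GRIK1 had its lowest.

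Of 8 auxiliary subunits and receptor-binding proteins 7 were lower. OLFM3, an olfactomedin, went from 1468 CPM to 1 UMI (log2 -9.55, -15.44 to -7.66), and LRRTM2, a synaptic adhesion protein, had the highest ratio at log2 0.21. Of 7 scaffold genes 5 were lower, DLGAP3 most (log2 -7.62), while HOMER3, a binding partner of metabotropic receptors, was higher (20.04 to 308 CPM, log2 3.94). Of 7 transporters and enzymes 4 were lower, GLS2, a glutaminase, most (log2 -5.54), and SLC38A2, a glutamine transporter, was highest (log2 2.22). HOMER3 and SLC38A2 were also the 2 genes of the list that were at least 2-fold higher in glia than in neurons before processing, where 15 were lower, beside 28.4% higher and 16.9% lower of all genes.

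The genes whose pattern was most like that of a member were sought across 14 clusters and classes in the 2 libraries, among 4861 genes, by Pearson correlation of log2(CPM + 10). These units share libraries and depth, so the values are descriptions. GRIN1 was closest to CAMK2B (r = 0.986) and UNC13A (0.980), GRIN2B to CACNG2 (0.980) and ROBO2 (0.980), and GRIA1 to SEPTIN3 (0.986) and TRIM9 (0.975). GRIN3A was closest to 2 genes with no symbol of their own (0.911 and 0.908) and to KCNC2 (0.907), a potassium channel gene. GRIK1 was closest to HDAC10 (0.955) and SNCAIP (0.947), and GRIK2 to LRRC49 (0.961) and GALNT13 (0.956). GRM3 was closest to TLE4 (0.911) and AASS (0.872). GRM8 was closest to SCAMP1 (0.944), SLC24A2 (0.872), which is one of the 7 oligodendrocyte markers, and STK39 (0.847).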

How the data were processed

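Nuclear RNA of 2 libraries, 1 per condition, was read by droplet-based 3′ sequencing. The deposited matrices hold raw UMI counts, judged from their whole-number values. DRAGEN is named in the submitters' processing notes. Its version, the genome build and the rule for calling barcodes were not given in the sources used here. Lowest depths were 904 UMIs (pre-processed) and 44 (post-processed).

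Barcodes with at least 100 genes were clustered jointly in Seurat 5.3.0 (R 4.3.3) at resolution 0.5, on 30 principal components of 2000 variable genes less 9 glutamate receptor genes, after log-normalization to 10000 UMIs. Scrublet, run through scanpy 1.11.5, removed nothing in the main setting. A cluster took the class with the highest mean z-score of its markers. It stayed unnamed where pan-neuronal markers contradicted the class, under 3 markers were raised 1.5-fold over the 25th percentile of other clusters, its 10 leading genes held more markers of another class, or it was shallower than its library's median divided by 3 with no marker of its own leading. This naming rule was written after the clusters were seen. The members, gene lists and markers were chosen with earlier results of these data known.

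Raw UMIs were summed per class. Log2 ratios add 0.5 counts, and a gene was tested with at least 10 UMIs in both sums together and called at a CPM ratio of 2 or more. Intervals are exact Poisson (levels), conditional binomial (ratios) and Clopper-Pearson (shares), at 95%. Named genes were the 8 members, the genes of each role of the glutamate list with the highest and lowest ratio between libraries, and the 3 genes most like each member (genes of at least 200 UMIs, units of at least 30 nuclei). The cluster levels of GRIK3 were added after their values were seen, and some other genes of the list are not reported here. The scripts were tested on simulated counts. Alternatives were other resolutions, filters, class definitions, scaling and thinning. Differences between clusters were not tested, and no sequence is printed.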

Additional observations from a re-analysis of the deposited data

Results flagged for a closer look

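GRM8 was also counted in barcodes that were not kept as nuclei. The 411 post-processed barcodes with under 100 detected genes, at a median of 64 UMIs, held 48 GRM8 UMIs, or 1655 CPM (1221 to 2195). That was above the 1038 CPM of the whole pre-processed library but below the 3040 CPM of the kept nuclei of their own library. The interval met that of the shallow microglia-like cluster (1417 CPM, 1152 to 1725). This result is given here because those barcodes enter no comparison above. Per 100 UMIs of the 7 oligodendrocyte markers they held 23.9 GRM8 UMIs (17.1 to 32.9), and their GRM3 level was 690 CPM from 20 UMIs.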

How the results depend on the processing

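No paired analysis was possible because there was 1 library per condition and the labels carry no replicate numbers. The number of members at least 2-fold lower after processing stayed at 6 in each setting tried, and the number higher in inhibitory-like nuclei at 4. GRM8 over all nuclei ranged from a log2 ratio of 1.10, scaled to the median gene ratio, to 1.61. In microglia-like nuclei its log2 ratio (-0.01) was 1.24 at resolution 1.0, 0.53 with classes from marker UMIs and 0.51 without nuclei holding markers of both classes, and -0.93 among nuclei of 1000 to 5000 UMIs, a setting chosen after seeing the data. The percentage of post-processed GRM8 in that class (48.4) was then 11.3, 35.0 and 5.66, and 44.1 without the shallow cluster, also chosen after seeing the data. The share of post-processed microglia-like nuclei with a GRM8 UMI was 16.7% thinned to 200 UMIs and 27.8% without thinning. Nuclei under 200 UMIs are left out of the thinned share, which covers 179 shared-cluster nuclei but 138 of the 227 shallow-cluster nuclei. The percentage of GRM8 of the shared microglia-like cluster in nuclei with 3 or more oligodendrocyte markers (98.9) was 96.3 in the same range of depth, likewise chosen after seeing the data. No ratio of 2-fold or more changed sign, while that of GRM8 in microglia-like nuclei, near 0, lay on either side of it (-0.93 to 1.24). A single library per condition and a post-processed median of 667.5 UMIs per nucleus limit what can be read from genes with few counts, such as GRIN1 and GRIN3A after processing.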

Other observations

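In vascular-like nuclei GRM3 rested on few nuclei. After processing 29 such nuclei held 83 GRM3 UMIs (1667 CPM), of which 70 lay in 1 nucleus, and the level was 272 CPM without it, a setting chosen after seeing the data. Before processing 8 such nuclei held 35 GRM3 UMIs, 4 of them holding at least 1.

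Receptor genes with next to no counts were seen as well. GRIN3B, another glycine-binding NMDA subunit, had 2 UMIs before processing and none after, and GRM6, the metabotropic receptor of retinal bipolar cells, had none in either library.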
